A study of Mus musculus with 15 samples.

Results

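Messenger RNA of 9 genes for growth factors that macrophages secrete was followed across 5 groups of mouse bone marrow cells. The genes were Hbegf, Areg, Ereg, Pdgfa, Pdgfb, Igf1, Tgfb1, Vegfb and Angpt1, found by symbol as 9 of the 17030 genes in the deposited table. No rule on measured values picked the genes, but earlier results of these data were known when they were chosen. The 15 libraries were 3 each of wild type untreated progenitors, wild type untreated macrophages grown from bone marrow (BMDM), untreated Hoxb8 macrophages that the labels also call wild type, control-CAR macrophages and CAR macrophages. The labels give the control-CAR group the genotype Control-CAR expression and the treatment Control-CAR treated, and the CAR group the genotype CAR expression and the treatment CAR treated. A chimeric antigen receptor (CAR) is an engineered receptor that directs an immune cell to a chosen antigen, and the labels name neither the antigen nor the signalling part. Hoxb8 is a homeobox factor widely used to keep myeloid progenitors dividing in culture, and the labels do not say whether the CAR cells came from that system. All 15 libraries are labelled bone marrow and primary cell, with no strain, sex or age. Whether libraries of one group are separate cultures or animals is not stated, so each p-value measures the spread between these libraries, which may be technical.

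These growth factors act mostly on neighbouring cells. Heparin-binding EGF-like growth factor (Hbegf), amphiregulin (Areg) and epiregulin (Ereg) are made as membrane proteins, are cut free by proteases such as ADAM17, and bind EGF receptors on epithelium and other tissue. Pdgfa and Pdgfb encode the chains of platelet-derived growth factor, which drives fibroblasts and the mural cells of vessels. Insulin-like growth factor 1 (Igf1) promotes growth and survival, and macrophages supply it during muscle and nerve repair. Transforming growth factor beta 1 (Tgfb1) is secreted in a latent form, and restrains immune cells and stimulates matrix once it is freed. Vegfb and Angpt1 encode ligands of the vascular receptors VEGFR1 and TIE2.

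Promoter sequence is shown, chosen after the values were seen, for genes that stood near 0 in one macrophage group and at a clear level in another. The RefSeq table for GRCm38.p6 matched 5 of the 9 genes, and 3 of them (Areg, Pdgfa with 2 start sites, and Igf1) did so. Each line gives the 250 bases before a start site, 5′ to 3′ on the gene's strand, with motif matches in capitals. Areg lies on chr5:91139349-91139598 (plus strand). The Pdgfa windows lie on chr5:138994282-138994531 and chr5:138994945-138995194 (minus strand), and the Igf1 window on chr10:87860861-87861110 (plus strand). The Pdgfa and Igf1 start sites fall inside the annotated span of their gene.
Areg: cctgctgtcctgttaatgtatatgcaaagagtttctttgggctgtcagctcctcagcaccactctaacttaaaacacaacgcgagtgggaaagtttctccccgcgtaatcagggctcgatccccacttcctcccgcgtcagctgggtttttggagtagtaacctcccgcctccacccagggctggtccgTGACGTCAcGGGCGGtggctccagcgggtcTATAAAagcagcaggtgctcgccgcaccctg
Pdgfa start site 1: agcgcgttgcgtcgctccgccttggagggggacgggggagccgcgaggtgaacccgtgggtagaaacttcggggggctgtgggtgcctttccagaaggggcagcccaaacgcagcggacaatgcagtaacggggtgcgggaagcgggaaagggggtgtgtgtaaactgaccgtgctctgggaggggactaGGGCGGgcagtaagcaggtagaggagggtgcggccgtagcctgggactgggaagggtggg
Pdgfa start site 2: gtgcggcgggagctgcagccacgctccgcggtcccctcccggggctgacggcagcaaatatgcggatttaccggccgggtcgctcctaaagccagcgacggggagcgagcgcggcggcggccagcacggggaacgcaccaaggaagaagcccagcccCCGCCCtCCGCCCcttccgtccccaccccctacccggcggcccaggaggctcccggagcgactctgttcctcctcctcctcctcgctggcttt
Igf1: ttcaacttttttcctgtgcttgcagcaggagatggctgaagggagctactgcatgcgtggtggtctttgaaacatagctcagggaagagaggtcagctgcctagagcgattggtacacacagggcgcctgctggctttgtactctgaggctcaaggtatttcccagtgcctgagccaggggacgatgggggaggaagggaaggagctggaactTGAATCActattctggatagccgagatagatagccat
Both strands were searched for 5 motifs. The TATA box was TATAAA, and the GC box was GGGCGG. The AP-1 site was TGANTCA. The cyclic AMP response element (CRE) was TGACGTCA. The core of the hypoxia response element was ACGTG, which none of the printed windows held. Positions are of the leftmost base, counted back from the base before the start site, which is -1. The Areg window held a CRE match at -61, a GC box at -52 and a TATA box at -31, none overlapping another. CRE letters occurred in 1.55% of 32851 RefSeq promoter windows of the same length, TATA letters in 12.4%, GC box letters in 32.7% and the hypoxia core in 16.6%. The Pdgfa windows held GC boxes, at -60 for the first start site and at -93 and -86 for the other. The Igf1 window held 1 AP-1 match, at -37, and such letters occurred in 6.75% of windows. CpG pairs numbered 15 in the Areg window, 19 and 28 in the Pdgfa windows and 5 in the Igf1 window, against a median of 6 over all windows. A match is a run of letters and no evidence of binding.

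The libraries held 16962839 to 19221681 estimated counts. Levels are given as FPKM, which scales reads by transcript length and library total, and changes as log2 ratios from a count model that scales libraries by the trimmed mean of M-values (TMM). That scaling sets the progenitor libraries apart (factors 1.46 to 1.47, against 0.824 to 1.05 elsewhere), so a change from progenitors can differ from the ratio of FPKM levels. Macrophage markers summed to 12000 to 13700 FPKM in the control-CAR, Hoxb8 and BMDM libraries, to 5580 to 5740 in the CAR libraries and to 207 to 228 in progenitors. The markers differed unevenly between CAR and control-CAR macrophages. Lyz2 averaged 612 against 5030 FPKM, Cd14 3170 against 4990, Adgre1 811 against 1130 and Cd68 738 against 758. Mertk was higher in CAR macrophages, at 0.423 against 0.09 FPKM. The CAR libraries also held mast cell and basophil markers at 3810 to 4050 FPKM in sum, with 10 of 11 at 1 FPKM or more, against 439 to 533 in the other 3 macrophage groups and 1750 to 1880 in progenitors. BMDM library 1 stood apart from the other BMDM libraries, with neutrophil markers at 6140 FPKM in sum against 12500 and 11100. In bulk libraries, fewer cells that express a gene and less of its RNA in each cell cannot be told apart.

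All 9 genes passed the low-value filter (1 FPKM in at least 3 libraries), but Igf1 passed through BMDM alone. Areg passed through 5 libraries of BMDM and CAR, Ereg through BMDM and CAR, and Angpt1 through progenitors and CAR. Pdgfa passed through BMDM, CAR and Hoxb8 library 3 (1.07 FPKM). Calls rest on an adjusted p under 0.05 in the quasi-likelihood test of edgeR, adjusted by Benjamini-Hochberg over 11793 genes. The 6 comparisons share groups and are not independent of each other. Counts of calls have to be read against the share of all tested genes called, which was high in 5 of the 6.

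CAR against control-CAR macrophages compares the groups labelled CAR expression and Control-CAR expression. The labels do not describe the control receptor or say whether both groups came from the same cells. In CAR macrophages 5 of the 9 genes were higher (Areg, Ereg, Pdgfa, Angpt1 and Vegfb), 3 were lower (Hbegf, Pdgfb and Tgfb1), and Igf1 was not called. That is a background in which 78.7% of all tested genes were called, 41.9% higher and 36.8% lower. The median log2 change of the 9 was 0.56, beside 0.064 over all tested genes, and 7 of the 9 did not overlap between the groups, beside 82.1% of tested genes. Scaling by library totals shifts that overall median by 0.31, and the calls by that scaling divided into 70.8% higher, against 53.3% in the count model as used.

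Control-CAR against Hoxb8 macrophages called 0 of the 9 genes, where edgeR called 2.62% of all tested genes, 0.721% higher and 1.9% lower. Before adjustment, 3 genes passed 0.05 in the edgeR fit across all genes, Angpt1 at 0.024, Hbegf at 0.0244 and Vegfb at 0.0233, and their adjusted p were 0.19, 0.192 and 0.188. Levels of 2 genes, Angpt1 and Hbegf, did not overlap between these groups, beside 21.9% of tested genes. DESeq2 and the limma fits also called 0 of the 9. The 95% intervals of the log2 change ran from -0.34 to -0.02 for Hbegf, -0.27 to 0.23 for Pdgfb, -0.18 to 0.23 for Tgfb1 and -0.83 to 0.52 for Pdgfa. Areg and Ereg had 0 counts in both groups.

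Against progenitors, Hoxb8 macrophages had 4 genes higher (Hbegf, Pdgfa, Pdgfb and Igf1) and 3 lower (Angpt1, Vegfb and Tgfb1), where 84.3% of all tested genes were called (44.7% higher, 39.6% lower). Levels of 7 did not overlap, beside 88.5% of tested genes. BMDM against the same progenitors had 6 higher (those 4 with Areg and Ereg) and 2 lower (Angpt1 and Vegfb), where 87.3% were called (46.6% higher, 40.7% lower). Levels of all 9 did not overlap, beside 90.4% of tested genes. Hoxb8 macrophages against BMDM had 2 genes higher (Hbegf and Angpt1) and 6 lower (Igf1, Areg, Ereg, Pdgfa, Pdgfb and Tgfb1), where 70.3% were called (32% higher, 38.3% lower). Levels of 8 did not overlap, beside 70.7% of tested genes. The median of the 9 in that comparison was -1.98, beside -0.048 over all tested genes. CAR macrophages against BMDM had 6 higher and 3 lower, where 76.9% were called (39.2% higher, 37.8% lower). Levels of all 9 genes did not overlap between those groups, as was true of 80.1% of tested genes.

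**Figure D1:**
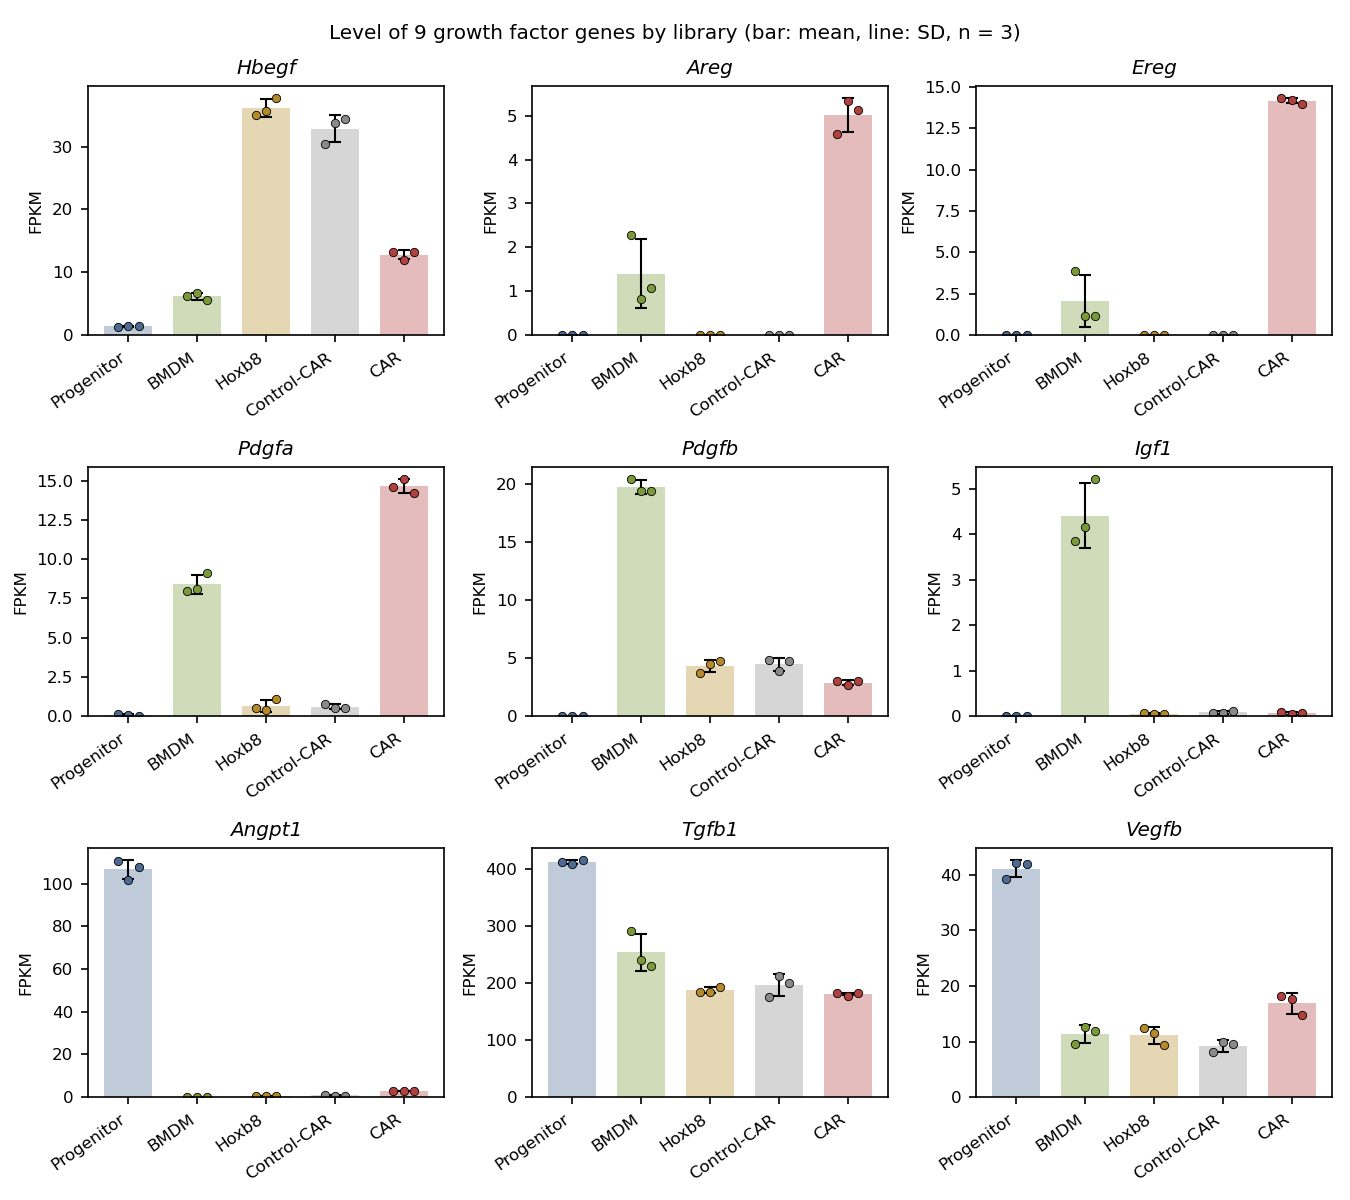
Each panel plots 1 gene: points are the FPKM of single libraries, bars the mean of 3 libraries and lines the SD, for the 5 groups. Areg and Ereg are at 0 in progenitors, Hoxb8 and control-CAR macrophages, Igf1 stands out in BMDM at 4.41 FPKM, and Angpt1 in progenitors at 107.

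Among the ligands of EGF receptors, Hbegf was the one found in every group. It measured 35.04, 35.61 and 37.76 FPKM in the Hoxb8 macrophage libraries and 30.45, 33.69 and 34.46 in control-CAR libraries. The CAR libraries had 13.26, 12.03 and 13.2, BMDM 6.26, 6.68 and 5.55, and progenitors 1.33, 1.45 and 1.52. The groups followed that order with no overlap between neighbours, although the first pair did not differ by the test. Hbegf was lower in CAR than in control-CAR macrophages by a log2 change of -1.66 (SE 0.08, 3.17-fold, adjusted p = 7.0e-13, n = 3 a group). Against BMDM it was higher, by 0.87 (SE 0.09) in CAR and by 2.72 (SE 0.08, 6.57-fold) in Hoxb8 macrophages. Hoxb8 macrophages exceeded progenitors by 5.48 (SE 0.1, 44.7-fold, adjusted p = 4.2e-19) and BMDM exceeded them by 2.77 (SE 0.12). By library totals those 2 changes were 4.65 and 2.11. The gene lies on the minus strand of chr18:36504927-36515805.

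Ereg was found in CAR macrophages and BMDM alone. The CAR libraries held 14.3, 14.2 and 13.97 FPKM, from 974, 1004 and 984 counts. BMDM held 3.86, 1.16 and 1.14 FPKM, from 284, 83 and 84 counts, and the 9 libraries of progenitors, Hoxb8 and control-CAR macrophages had 0 counts. The CAR libraries agreed closely, every one was above every BMDM library, and BMDM library 1 was well above its group. A count of 0 allows up to 3 counts in a library, which makes Ereg at least 256-fold higher in CAR than in control-CAR macrophages (adjusted p = 8.1e-08). Against BMDM it was 6.03-fold higher in CAR macrophages (log2 2.59, SE 0.33, adjusted p = 1.4e-05). Without BMDM library 1 that log2 change was 3.46. BMDM exceeded Hoxb8 macrophages at least 41.5-fold and progenitors at least 74-fold, and without library 1 these bounds were 22.5 and 40.2.

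Areg moved with Ereg at lower levels. The CAR libraries held 4.58, 5.33 and 5.14 FPKM (74, 89 and 85 counts), BMDM 2.29, 0.83 and 1.08 (40, 14 and 19 counts), and the same 9 libraries as for Ereg had 0 counts. CAR was again above BMDM in every library, and BMDM library 1 was again the highest of its group. Areg was at least 21.4-fold higher in CAR than in control-CAR macrophages (adjusted p = 3.6e-07) and 3.12-fold higher than in BMDM (log2 1.64, SE 0.29, adjusted p = 2.4e-04). Hoxb8 macrophages were at least 6.68-fold and progenitors at least 11.9-fold below BMDM, and without BMDM library 1 the bounds were 4.43 and 7.91. The ratio of Ereg to Areg FPKM was 3.12, 2.66 and 2.72 in the CAR libraries and 1.69, 1.4 and 1.06 in BMDM, so the ranges did not overlap. No test was run on this ratio.

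Both genes lie on the plus strand of chromosome 5, Ereg at chr5:91074617-91093649 and Areg at chr5:91139599-91148432, with a gap of 45949 bases and 0 annotated genes between them. A pair of relatives flanks them in the same cluster: Epgn (epigen) 39404 bases before Ereg, and Btc (betacellulin) 208828 bases beyond Areg. Btc averaged 0.357 FPKM in CAR macrophages and at most 0.0133 in any other group. Epgn was at most 0.08 FPKM in any group. Both were under the filter and were not tested.

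Summed over Hbegf, Areg and Ereg, the ligand RNA of CAR macrophages came to 32.0 ± 0.393 FPKM and that of control-CAR macrophages to 32.9 ± 2.13 (SD, n = 3), with library ranges of 31.6 to 32.3 and 30.4 to 34.5 that overlapped. The sum was 36.1 ± 1.43 in Hoxb8 macrophages, 9.62 ± 2.46 in BMDM and 1.43 ± 0.0961 in progenitors. CAR and Hoxb8 macrophages did not overlap (at most 32.3 against at least 35.04), and no test was run on these sums, which are on the FPKM scale without TMM. The makeup differed between groups as well. Hbegf was the whole of it in control-CAR and Hoxb8 macrophages and in progenitors. In CAR macrophages Ereg made up 44.2% ± 0.905, Hbegf 40.1% ± 1.71 and Areg 15.7% ± 1.33. In BMDM Hbegf made up 66.3% ± 14.0, with 50.4% in library 1. Mast cell and basophil markers in sum were highest in CAR libraries, at 3810 to 4050 FPKM. The sums of the other groups did not follow this makeup, and single markers differed among themselves. Sums were 465 to 533 FPKM in BMDM, 451 to 492 in control-CAR, 439 to 443 in Hoxb8 and 1750 to 1880 in progenitor libraries. Of 11 such markers, 10 were at 1 FPKM or more in CAR, 9 in BMDM and 7 in each other group, and Cma1, a mast cell protease, was at 0 in Hoxb8 macrophages and progenitors. Of 10 tested, 9 were higher in CAR than in control-CAR macrophages, beside 41.9% of all tested genes. Against BMDM, 6 were lower and 3 higher in Hoxb8 macrophages, beside 38.3% lower and 32% higher among all tested genes. Cma1 averaged 90.2 FPKM in CAR, 0.137 in BMDM (6 counts in all) and 0.0733 in control-CAR macrophages. The basophil protease Prss34 averaged 165 in CAR, 180 in BMDM, 12.2 in Hoxb8 and 19.4 in control-CAR macrophages. Others were lower in BMDM than in Hoxb8 and control-CAR macrophages. Tpsb2 averaged 329 in CAR, 1.73 in BMDM, 3.84 in Hoxb8 and 4.91 in control-CAR macrophages. Hdc averaged 681, 144, 380 and 396 in these groups, and Kit 4.71, 3.73, 4.57 and 4.02. The part of such cells in these results was not tested.

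**Figure D2:**
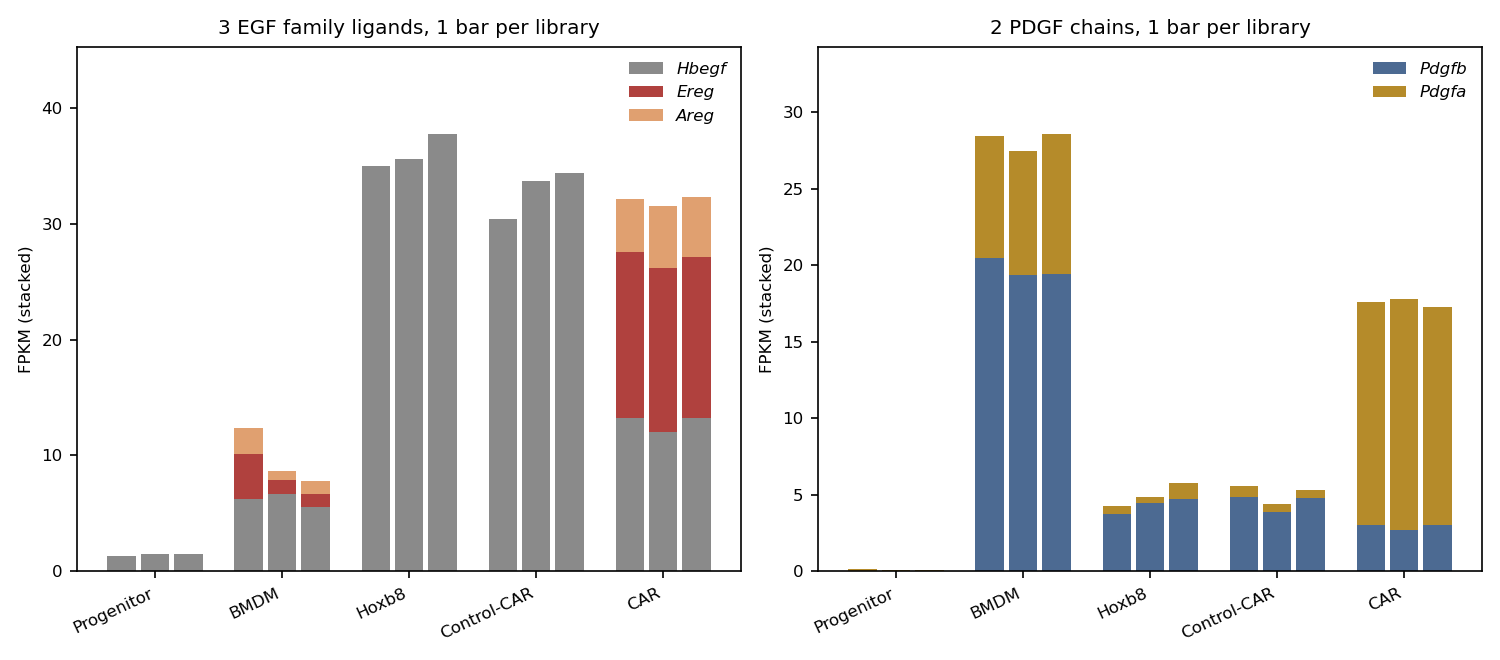
Stacked FPKM in each of the 15 libraries, with the 3 EGF family ligands on the left and the 2 PDGF chains on the right. Bars of CAR and control-CAR libraries reach similar heights on the left with a different makeup, and on the right Pdgfa takes up most of the CAR bars and Pdgfb most of the BMDM bars.

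The rest of the EGF family was thin in these cells. Of 8 other ligands, 3 were tested, and Nrg1 (neuregulin 1, a ligand of ERBB3 and ERBB4) was the one at a clear level. It averaged 76.3 FPKM in BMDM, 25.2 in CAR, 3.21 in Hoxb8 and 2.73 in control-CAR macrophages and 0.0167 in progenitors. It was 12.4-fold higher in CAR than in control-CAR macrophages (log2 3.64, SE 0.12, adjusted p = 5.9e-15) and 3.67-fold lower in CAR macrophages than in BMDM. Of the receptors, Egfr reached 0.413 FPKM in BMDM and at most 0.00333 in any other group. Erbb2, the partner receptor that binds no ligand itself, reached a mean of 3.05 FPKM in CAR macrophages and at most 0.0367 elsewhere, at least 67.5-fold higher than in control-CAR macrophages (adjusted p = 8.6e-11). Erbb3 ran the other way, at a mean of 0.04 FPKM in CAR against 1.89 in control-CAR macrophages (58.9-fold lower), 1.88 in Hoxb8 macrophages, 0.57 in BMDM and 4.61 in progenitors.

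Genes for ligand shedding and maturation were mostly lower in CAR than in control-CAR macrophages, with 8 of 11 tested members lower and 2 higher, beside 36.8% lower and 41.9% higher among all tested genes, and a median log2 change of -0.69 beside 0.064. By TPM, however, 5 were lower and 4 higher. Adam15 (2.65-fold), Furin (1.97-fold), a proprotein convertase that also cuts the TGF-beta precursor, and Rhbdf2 (1.71-fold), which carries ADAM17 to the cell surface, were lower. Rhbdf1, the relative of Rhbdf2, averaged 5.13 FPKM in CAR macrophages and had no counts in control-CAR macrophages, a difference of at least 64.6-fold. Adam17, the main sheddase of Areg, Ereg and Hbegf, averaged 46.3 FPKM in CAR, 62.1 in control-CAR and 59 in Hoxb8 macrophages, 77.3 in BMDM and 58.6 in progenitors.

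The PDGF chains were highest in different groups. Pdgfa measured 14.59, 15.11 and 14.24 FPKM in CAR libraries and 7.99, 8.09 and 9.11 in BMDM. It measured 0.77, 0.53 and 0.51 in control-CAR libraries, 0.49, 0.38 and 1.07 in Hoxb8 macrophages, and 0.14, 0.07 and 0.04 in progenitors, where these were 4, 2 and 1 counts. CAR and BMDM stood clear of the other groups and of each other, while control-CAR and Hoxb8 macrophages overlapped. Pdgfa was 19.1-fold higher in CAR than in control-CAR macrophages (log2 4.26, SE 0.19, adjusted p = 3.1e-13) and 1.51-fold higher than in BMDM (log2 0.59, SE 0.12, adjusted p = 3.2e-04). Hoxb8 macrophages were 11.4-fold below BMDM (log2 -3.51, SE 0.19). Against the few counts of progenitors, the log2 change was 3.8 in Hoxb8 macrophages (95% interval 2.78 to 4.82) and 7.31 in BMDM (6.71 to 7.91). Fibroblast markers summed to 29.8 to 31 FPKM in CAR and 53.6 to 80.2 in BMDM libraries against 1.47 to 2.82 in the rest, with 3 of 8 markers at 1 FPKM or more in CAR, 5 in BMDM and 1 in each other group. The CAR sum was mostly Col1a2 (23.9 FPKM, against 1.25 in BMDM) and the BMDM sum mostly Thy1 (50.2, against 0.617 in CAR). The part of such cells was not tested. The gene lies on the minus strand at chr5:138976014-139000792.

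Pdgfb was highest in BMDM. BMDM libraries held 20.45, 19.38 and 19.43 FPKM, control-CAR 4.82, 3.85 and 4.79, Hoxb8 macrophages 3.76, 4.46 and 4.72, and CAR 3, 2.66 and 3.02, while progenitors had 0 counts. BMDM was above all other libraries and CAR the lowest of the macrophage groups without overlap. CAR was 2.02-fold below control-CAR macrophages (log2 -1.02, SE 0.12, adjusted p = 9.2e-07) and 8.07-fold below BMDM (log2 -3.01, SE 0.11, adjusted p = 2.7e-13). Hoxb8 macrophages were 3.94-fold below BMDM (log2 -1.98, SE 0.1) and at least 119-fold above progenitors, and BMDM at least 468-fold above progenitors. By TPM the fall from control-CAR to CAR was smaller, at -0.33 on the log2(TPM + 1) scale, and still called. Platelets are a known store of PDGF, and megakaryocyte and platelet markers summed to 3490 to 3820 FPKM in BMDM, 816 to 917 in Hoxb8 and control-CAR, 352 to 364 in CAR and 125 to 128 in progenitor libraries. Most of the BMDM sum was Pf4 (3470 FPKM). Another marker, Itga2b, was highest in progenitors, at 90.2 FPKM against 49.6 in CAR and 15.8 in BMDM, and of 7 markers 6 were at 1 FPKM or more in BMDM, 2 in CAR and 3 in each other group. Their part was not tested. Pdgfb lies on the minus strand at chr15:79995865-80024614.

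Of the summed PDGF chains, Pdgfa made up 83.5% ± 1.35 in CAR macrophages, 29.8% ± 1.94 in BMDM, 11.8% ± 2.09 in control-CAR and 12.6% ± 5.4 in Hoxb8 macrophages (SD, n = 3). Their receptors were unevenly present. Pdgfra, which binds both chains, was at most 0.78 FPKM, the CAR mean. Pdgfrb, which binds the B chain, averaged 22.3 FPKM in progenitors, 16.9 in control-CAR, 15.9 in Hoxb8 and 5.81 in CAR macrophages and 4.43 in BMDM. In Hoxb8 macrophages against progenitors it was called higher by edgeR with TMM (log2 0.33, adjusted p = 0.00135) but lower by library totals (-0.5). It was 3.65-fold lower in CAR than in control-CAR macrophages (log2 -1.87, SE 0.09, adjusted p = 1.1e-12).

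Igf1 exceeded 1 FPKM in the BMDM libraries and in no other of the 15. BMDM held 3.85, 4.16 and 5.22 FPKM (499, 525 and 675 counts). CAR libraries had 12, 5 and 8 counts, control-CAR 7, 9 and 14, Hoxb8 macrophages 9, 6 and 5, and progenitors 0, which in the macrophages is 0.04 to 0.12 FPKM. CAR, control-CAR and Hoxb8 macrophages overlapped one another. Hoxb8 macrophages were 69.5-fold (log2 -6.12, SE 0.22, adjusted p = 3.2e-13) and CAR macrophages 72.3-fold (log2 -6.18, SE 0.21, adjusted p = 1.3e-13) below BMDM, and BMDM was at least 275-fold above progenitors. CAR against control-CAR was not called, at -0.61 (95% interval -1.52 to 0.3, adjusted p = 0.18), although quantile scaling called it lower at -0.86 (adjusted p = 2.4e-06). Hoxb8 macrophages were at least 3.91-fold above progenitors (adjusted p = 2.3e-05), a call on 20 counts in all that was lost on the log2(FPKM + 1) scale (0.079, adjusted p = 0.309) and by TPM (0.097, adjusted p = 0.234). Igf1 lies on the plus strand at chr10:87858265-87937047, overlapped by the antisense gene Igf1os. How the counting treated strand is not stated, so reads of the pair cannot be told apart. Annotated genes also overlap Angpt1 (Gm41313), Hbegf (Gm41698), Ereg (Gm19610) and Pdgfb (Mir7213), and their reads may be mixed in the same way.

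Several genes that receive and modify IGF1 were higher in CAR than in control-CAR macrophages, where Igf1 was not called. Of 8 tested genes for IGF receptors, binding proteins and substrates, 6 were higher and 2 lower in CAR than in control-CAR macrophages under every scaling tried, beside 41.9% higher and 36.8% lower among all tested genes, with a median log2 change of 2.66 beside 0.064. Igf1r, the signalling receptor, averaged 7.48 FPKM in BMDM and 4.27 in CAR macrophages, and at most 0.00667 in the other 3 groups. Irs2, an adaptor of that receptor, was 28.7-fold higher in CAR than in control-CAR macrophages (19.4 against 0.547 FPKM) and Igfbp4, a binding protein that holds IGF1 back, 6.13-fold higher (62.3 against 8.08). Igf2r, which clears IGF2, was 6.51-fold higher. Insr, the insulin receptor, was 2.27-fold lower in CAR macrophages (10.4 against 19.1 FPKM). Progenitors had the most Igfbp4, at 294 FPKM, and Hoxb8 macrophages the most Igfbp7, another binding protein, at 354.

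**Figure D3:**
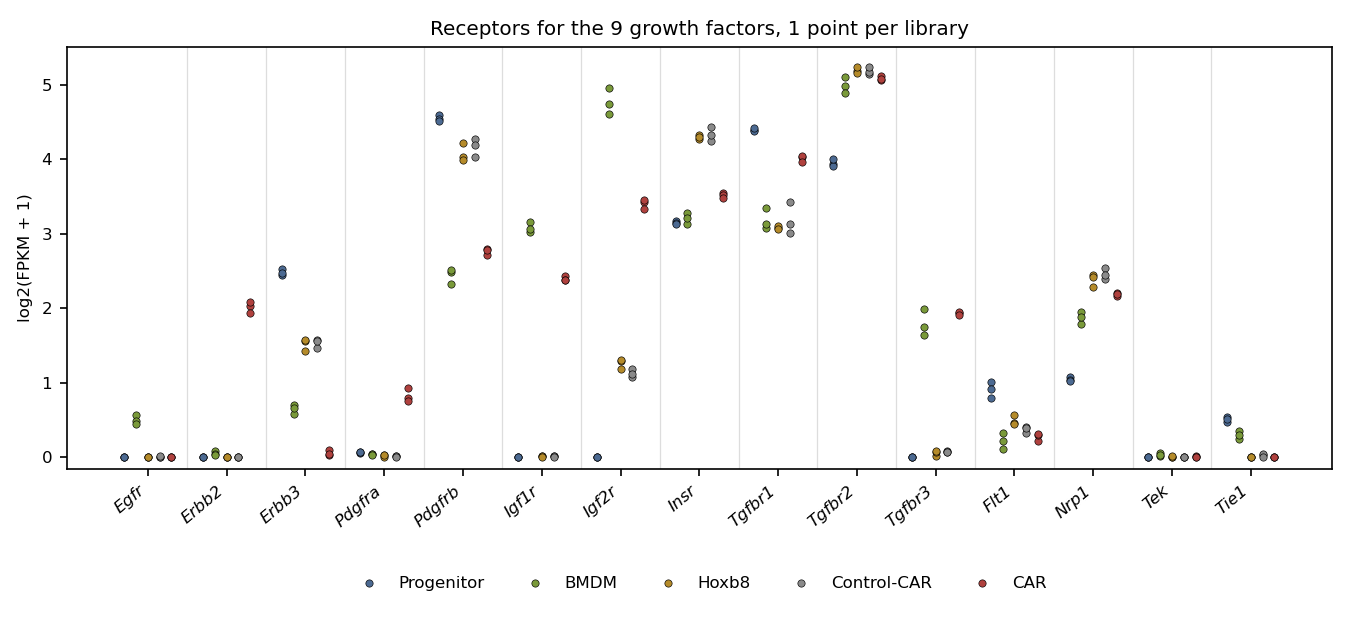
Points are single libraries on a log2(FPKM + 1) axis, for receptors of the 9 ligands, coloured by group. Igf1r, Igf2r and Tgfbr3 are raised in BMDM and CAR libraries, Erbb2 in CAR libraries, and Pdgfrb and Erbb3 are highest in progenitors.

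Tgfb1 was the most abundant of the 9 in every group, and made up 71.8% to 84.2% of their summed FPKM. Progenitor libraries held 413.12, 409.83 and 416.66 FPKM, BMDM 291.28, 240.78 and 230.84, and Hoxb8 macrophages 184.09, 184.68 and 193.4. Control-CAR libraries held 175.11, 213.31 and 200.22, and CAR libraries 182.52, 178.41 and 182.67. Progenitors were the highest and BMDM next without overlap, while the CAR libraries lay inside the control-CAR range. Its changes were small, and several turned on the scaling. CAR was lower than control-CAR by a log2 change of -0.42 (SE 0.09, adjusted p = 4.6e-04), but by library totals the change was -0.11 (adjusted p = 0.198) and by TPM it was 0.13 (adjusted p = 0.165). CAR was lower than BMDM by -0.68 (SE 0.09, adjusted p = 2.8e-06), and lower under all scalings tried. Hoxb8 macrophages were lower than BMDM by -0.28 (SE 0.09, adjusted p = 0.0122), a call that was lost without BMDM library 1 (-0.14, adjusted p = 0.104). They were lower than progenitors by -0.31 (SE 0.09, adjusted p = 0.00503), and by -1.14 by library totals. BMDM against progenitors was not called at -0.03 (adjusted p = 0.788), while scaling by library totals called it lower at -0.69 (adjusted p = 1.6e-07). Tgfb1 lies on the plus strand at chr7:25687002-25705077.

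**Figure D4:**
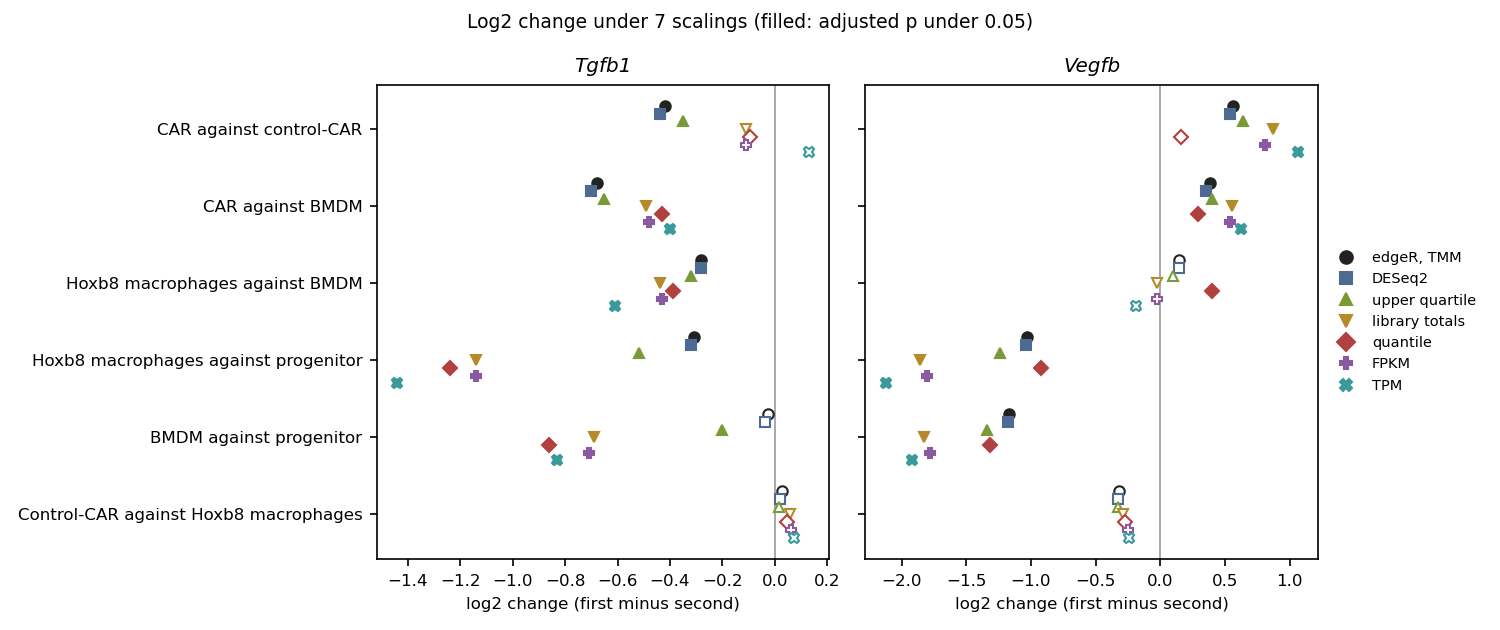
Log2 change of Tgfb1 (left) and Vegfb (right) in the 6 comparisons under 7 scalings, one symbol a scaling, filled where the adjusted p is under 0.05. For Tgfb1, CAR against control-CAR runs from -0.44 by DESeq2 to 0.13 by TPM, and BMDM against progenitor from -0.86 to -0.03.

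TGF-beta is held and freed by other proteins, whose genes differed between the groups in both directions. In the list of other TGF-beta ligands, latency and activation genes, 7 of 11 tested members were higher and 3 lower in CAR than in control-CAR macrophages, beside 41.9% and 36.8% of all tested genes, with a median log2 change of 0.92, and by quantile scaling 6 were higher and 4 lower. Latent TGF-beta binding proteins, which tether the latent complex to matrix, were higher: Ltbp4 averaged 8.12 against 0.00667 FPKM, Ltbp1 6.5 against 0.0167 and Ltbp3 8.38 against 0.87. Lrrc32, which encodes GARP and displays latent TGF-beta on the cell surface, was 152-fold lower (0.0533 against 6.41 FPKM, adjusted p = 1.4e-15), while Hoxb8 macrophages had 11.4 FPKM and BMDM 0.667. Nrros, a relative of Lrrc32 used by myeloid cells and named after its values were seen, stood at 53.8 against 54.6 FPKM with overlapping libraries, and was called lower at a log2 change of -0.32 by the TMM fit and higher by TPM, at 0.22. Tgfbi, a known TGF-beta target, averaged 620 FPKM in BMDM and 8.06 in CAR, 1.71 in control-CAR and 1.5 in Hoxb8 macrophages. Of 12 tested receptor and SMAD genes 5 were higher and 5 lower in CAR than in control-CAR macrophages, beside the same shares of all genes, though 9 were higher and 1 lower by TPM. Smad7, the inhibitory SMAD, rose 2.53-fold and Acvrl1, an endothelial type I receptor, fell 11.7-fold. Tgfbr1 averaged 15.1 against 8.18 FPKM (1.5-fold higher) and Tgfbr2 32.9 against 35.3.

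Vegfb was highest in progenitors, at 39.28, 42.09 and 41.94 FPKM. CAR libraries held 18.21, 17.74 and 14.74, BMDM 9.53, 12.71 and 11.85, Hoxb8 macrophages 12.37, 11.63 and 9.37, and control-CAR libraries 8.04, 9.97 and 9.56. CAR was above the other macrophage groups without overlap, and those 3 overlapped each other in turn. It was 1.47-fold higher in CAR than in control-CAR macrophages (log2 0.56, SE 0.12, adjusted p = 4.7e-04), a call lost under quantile scaling (0.16, adjusted p = 0.247), and 1.3-fold higher than in BMDM (log2 0.38, SE 0.12, adjusted p = 0.00812). Hoxb8 macrophages (log2 -1.03, SE 0.11) and BMDM (log2 -1.17, SE 0.11) were both lower than progenitors, and by library totals the changes were -1.86 and -1.83. Hoxb8 macrophages against BMDM was not called, at 0.14 (95% interval -0.14 to 0.42). The gene lies on the minus strand at chr19:6982472-6987651.

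Angpt1 was by far highest in progenitors. Progenitors held 110.39, 101.84 and 107.81 FPKM, CAR 2.95, 3.05 and 3.01, control-CAR 0.93, 0.75 and 0.68, Hoxb8 macrophages 0.63, 0.59 and 0.55, and BMDM 0.26, 0.27 and 0.19. No neighbours in this order overlapped, although control-CAR against Hoxb8 macrophages did not pass the test. Hoxb8 macrophages were 102-fold (log2 -6.67, SE 0.08, adjusted p = 1.9e-21) and BMDM 283-fold (log2 -8.14, SE 0.09, adjusted p = 1.1e-21) below progenitors. CAR macrophages were 2.94-fold above control-CAR macrophages (log2 1.56, SE 0.1, adjusted p = 5.6e-11) and 10.6-fold above BMDM (log2 3.41, SE 0.12). By quantile scaling the first of these was 0.78. The sum of myeloid progenitor markers was also higher in CAR than in control-CAR libraries, at 156 to 170 against 9.57 to 11.1 FPKM. BMDM stood at 152 to 270 and progenitors at 2760 to 2810. The CAR sum was mostly Ctsg (113 FPKM) and Cd34, while Mpo averaged 0.55 and Flt3 0.00667 in CAR libraries. Of 7 such markers 4 were higher in CAR than in control-CAR macrophages and 3 were not called, beside 41.9% higher among all tested genes. Against BMDM, 2 were higher and 4 lower in CAR macrophages, beside 39.2% higher and 37.8% lower among all tested genes. Cd34 averaged 40.8 FPKM in CAR and 9.31 in BMDM, and Elane 0.417 and 77.4. The part of such cells was not tested. Angpt1 lies on the minus strand at chr15:42424667-42676977.

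Receptors of these vascular ligands were low. Flt1, the receptor of VEGFB, was at most 0.883 FPKM, in progenitors. Tek, which encodes TIE2, was at most 0.0233 FPKM, and Tie1 at most 0.423. Nrp1, a co-receptor, averaged 3.55 FPKM in CAR macrophages, against 4.49 in control-CAR macrophages. Nrp2, a co-receptor of other VEGF ligands, was 82.9-fold higher in CAR than in control-CAR macrophages (26.2 against 0.253 FPKM), and stood at 80.1 in BMDM. Pgf, the placental growth factor that shares FLT1 with VEGFB, was 3.2-fold lower in CAR macrophages (22.3 against 57.7 FPKM). Angptl4 and Angptl2, relatives of the angiopoietins that do not bind TIE2, were 12-fold and 4.75-fold higher in CAR than in control-CAR macrophages.

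**Figure D5:**
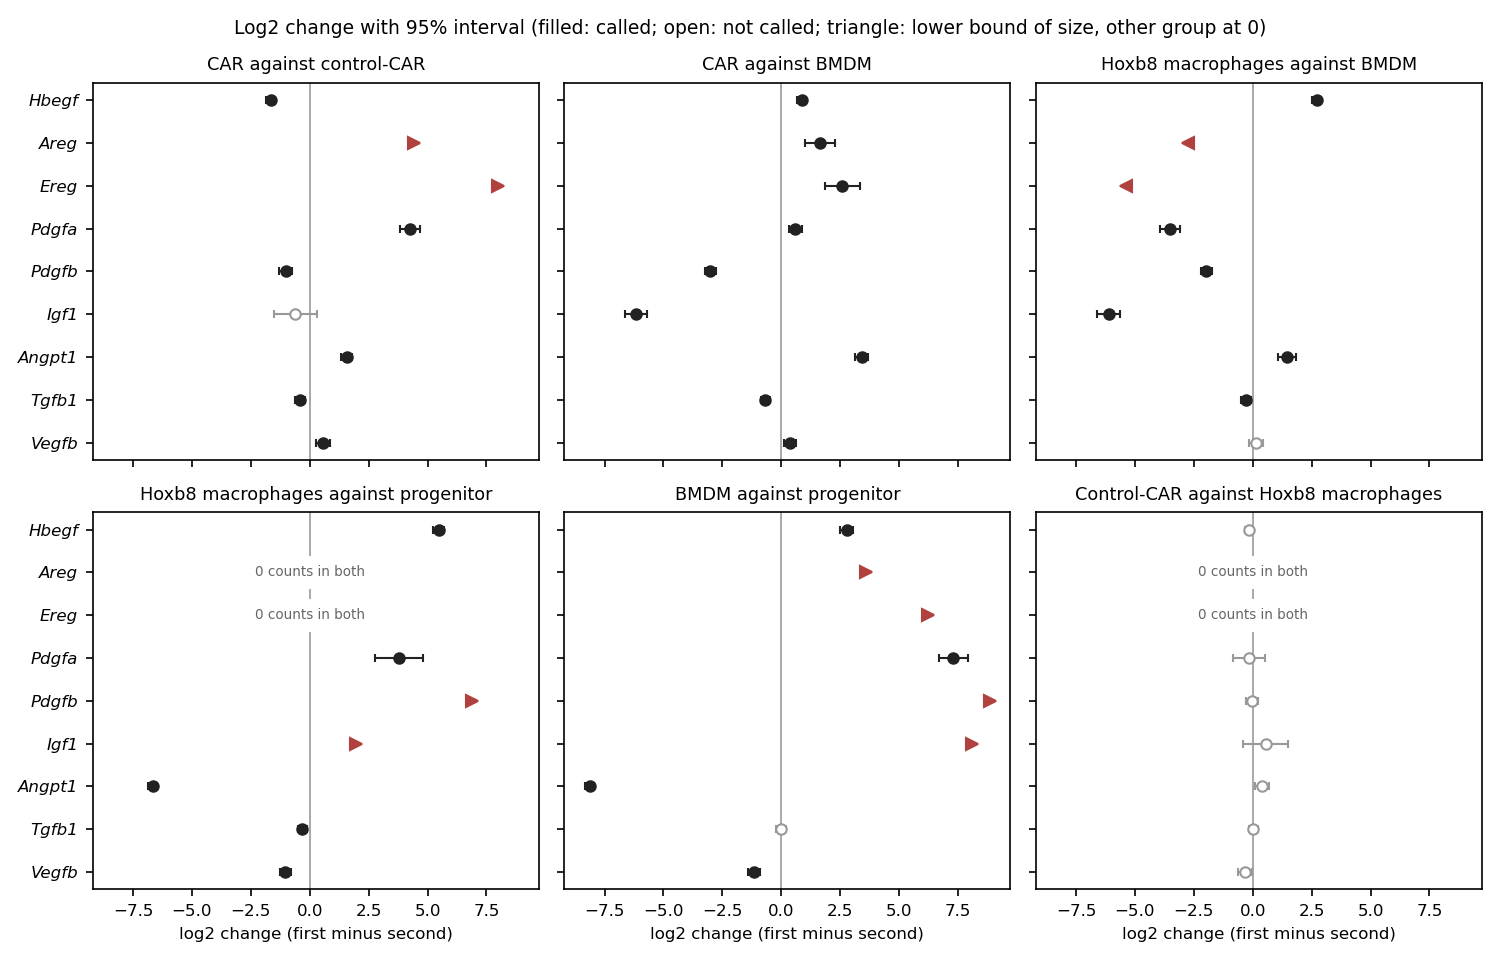
Log2 change of the 9 genes in the 6 comparisons, with 95% intervals. Filled points were called, open points were not, and triangles mark the bound of a change against a group with 0 counts, such as Ereg at 256-fold for CAR against control-CAR.

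Across the 15 libraries, log2(FPKM + 1) of Areg and Ereg had a Pearson r of 0.99, Pdgfa had 0.93 with Areg and 0.91 with Ereg, and Vegfb had 0.96 with Angpt1. Hbegf had -0.88 with Tgfb1. These values describe 5 groups of like libraries rather than 15 independent points, share depth and scaling, and were given no p. The tested gene most like each of the 9 was chosen by the same measure. For Areg it was Efnb2 (r = 0.996), the transmembrane ligand ephrin B2, which averaged 4.21 FPKM in CAR macrophages, 1.15 in BMDM and at most 0.0533 elsewhere. For Ereg it was Areg itself (r = 0.995), followed by Efnb2 and Acyp2 at the same r. For Pdgfa it was Chst15 (r = 0.996), a chondroitin sulfotransferase. For Igf1 it was Cysltr1 (r = 0.999), a leukotriene receptor, at 2.87 FPKM in BMDM, followed by the nucleoside transporter Slc28a3 and the pentraxin Ptx3 (both 0.998). For Hbegf it was Coq8a (r = 0.997), at 44.4 FPKM in Hoxb8 and 16.2 in CAR macrophages, followed by hexokinase 2, Hk2 (r = 0.994). For Pdgfb it was Dip2a (r = 0.993), followed by Nfe2l2 (r = 0.992), the transcription factor NRF2. For Tgfb1 it was Lpcat1 (r = 0.988), for Vegfb Zfp787 (r = 0.987) and for Angpt1 Snrpa1 (r = 0.998), a spliceosome protein.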

How the data were processed

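Polyadenylated RNA from 15 libraries was sequenced, and 1 table of 17030 genes was used. Estimated counts per gene, deposited without normalisation and headed as read counts, served for the tests, and 94.4% to 96% of values per library were whole. The deposited FPKM and TPM values are the authors' own and served for levels and alternatives. The submitters' processing notes name HISAT2, Bowtie2, RSEM 1.3.1, DESeq2 1.4.5 and GRCm38.p6, with no roles, and neither annotation nor strandedness is given in the sources used here. The 15 columns of averages were not used.

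Counts were rounded and tested with edgeR 4.0.16 (R 4.3.3), using TMM scaling and 1 quasi-likelihood model with 5 group means for the 15 libraries (10 residual degrees of freedom). Genes needed 1 FPKM in at least 3 libraries, which kept 11793 and left out 5237. Tests were two-sided, with Benjamini-Hochberg adjustment over all tested genes and a threshold of 0.05. A group at 0 was given 3 counts per library (0.114 to 0.208 CPM) to bound a change. Such bounds and intervals cover counting error and the spread of these libraries only. Depth was 16962839 to 19221681 estimated counts. No 2 libraries of a group agreed within counting noise (chi-square per degree of freedom 1.39 to 20.4).

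All 9 growth factor genes, the receptors, and up to 4 called genes of each pathway list, taken by size of change among those with at least 5 FPKM in the higher group, could be named. Not every gene this rule selects is described, and 1 gene of the VEGF list that it selects is not reported here. For each of the 9, up to 3 genes with the highest Pearson r over the 15 libraries are named. The members and lists were chosen with earlier results of these data known. Coordinates and promoter windows came from RefSeq on GRCm38.p6, which matched 16978 of 17030 identifiers. Alternatives were DESeq2 1.42.0, upper quartile, library totals, quantile, limma 3.58.1 on log2(FPKM + 1), log2(FPKM + 0.1) and log2(TPM + 1), no filter, only the 2 groups compared, a replicate block, and leaving out each library. The count model was tested on simulated data. Figures were drawn with Python 3.11.15 and matplotlib 3.10.9.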

Additional observations from a re-analysis of the deposited data

How the results depend on the processing

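Of 800 values of single growth factor genes under an alternative, 767 kept their direction and their side of the threshold, 17 changed sign, 8 lost their call and 8 gained one. All 17 sign changes concerned changes that were small or not called. For CAR against control-CAR, Tgfb1 was 0.13 by TPM. For control-CAR against Hoxb8 macrophages, Pdgfb was 0.016 by library totals, 0.001 by quantile scaling, 0.046 and 0.055 on the log2 scales of FPKM + 1 and FPKM + 0.1, 0.061 by TPM, 0.026 without control-CAR library 2 and 0.11 without Hoxb8 library 3, and -0.13 to 0.11 over all libraries left out in turn. There Pdgfa was 0.004 on the FPKM + 0.1 scale and -0.42 to 0.39 with 1 library left out (0.39 without Hoxb8 library 3), and Tgfb1 was -0.061 to 0.12 (-0.061 without control-CAR library 2). For Hoxb8 macrophages against BMDM, Vegfb was -0.03 by library totals, -0.028 and -0.03 on the FPKM scales and -0.19 by TPM, and quantile scaling called it higher (0.40, adjusted p = 0.00828). For BMDM against progenitors, Tgfb1 was 0.016 without BMDM library 2 and 0.057 without library 3, in a range of -0.16 to 0.057. The causes were not tested.

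The number of the 9 genes called stayed within 1.5 times under every alternative run. Over all tested genes, the count for control-CAR against Hoxb8 macrophages went from 309 to 470 by library totals, to 97 with only the 2 groups in the fit, and to between 106 and 311 with 1 library left out. Library totals shifted the median of all genes by -0.74 for Hoxb8 macrophages and by -0.64 for BMDM against progenitors, so changes from progenitors are relative to the scaling. Replicate numbers did not pair the libraries (correlations of same-numbered deviations -0.22 to 0.0672). A replicate block changed no call of the 9 genes, and it called 9204 genes for CAR against control-CAR (9280 without it) and 246 for control-CAR against Hoxb8 macrophages. Calls of Areg, Ereg, Igf1 and Pdgfa in groups with under 15 counts a library rest on few reads.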

Other observations

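Growth factors of macrophages outside the 9 also differed between the groups. Of 8 tested genes of a list of such factors, 4 were higher and 1 lower in CAR than in control-CAR macrophages, beside 41.9% and 36.8% of all tested genes, and 7 were higher by library totals. Gdf15, a stress-induced member of the TGF-beta family, averaged 0.703 FPKM in CAR macrophages and 22.1 in control-CAR macrophages, 40.9-fold lower (log2 -5.35, SE 0.2, adjusted p = 1.9e-14). The other groups had 25 (Hoxb8 macrophages), 18.4 (progenitors) and 14.4 FPKM (BMDM). Lif, a cytokine of the interleukin 6 family, was 3.18-fold higher in CAR macrophages, at 39.6 against 10.1 FPKM. Hgf, a growth factor for epithelium that acts through MET, averaged 83 FPKM in CAR, 59.2 in control-CAR and 51.4 in Hoxb8 macrophages and 18.1 in BMDM. Csf1, the macrophage colony-stimulating factor, averaged 268 FPKM in CAR macrophages and 31 in BMDM, 6.92-fold higher (log2 2.79, SE 0.07, adjusted p = 3.3e-16).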
